A study of Schmidtea mediterranea with 4 samples.

Results

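Among 22192 genes listed for the sexual planarian *Schmidtea mediterranea*, 51 were detected in few cells and yet gave many transcripts per positive cell. Transcripts were counted as unique molecular identifiers (UMIs), the tags that mark each captured molecule in single-cell RNA sequencing (scRNA-seq), and every cell was marked by a barcode. After pooling all libraries, a gene was a member if it had at least 1 UMI in 50 to 960 barcodes and a mean of at least 5 UMIs per positive barcode. *klf4l* (SMESG000031008.1), a germline stem cell marker that itself met both limits with 232 positive barcodes and a mean of 5.17 UMIs, was left out. Genes were also left out if their lower counts per 1000000 UMIs of the library (CPM) in one region was at least 2 times the higher in the other, which removed 9 posterior and 6 anterior genes.

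The 4 libraries came from sexual planarians that were starved for a week, with no mutation or treatment in the labels, 2 libraries (1 and 2) each from posterior and anterior tissue. Live cells for each suspension were sorted from the tissue of 15 to 20 animals, and no source states whether libraries 1 and 2 of a region came from separate batches of animals. The spread between them may therefore be technical. Posterior libraries 1 and 2 held 12026 and 19080 cells with medians of 3297.5 and 2394.5 UMIs per cell, and anterior libraries 1 and 2 held 6721 and 10389 cells with medians of 1208 and 1218 UMIs. The labels give the cell type as reproductive organs, but the authors also reported cells of other somatic tissue classes in these data. The cells of each group described below were left out in turn, and those of the other groups were kept. In the remaining cells, *LamA*, a marker of somatic gonadal and support cells, was detected in 3.4% to 3.44%. *nrps*, the nonribosomal peptide synthetase of these cells, was detected in 0.334% to 0.338%. Both genes mark support cells and their detection depends on depth, so these shares do not measure how many cells came from reproductive organs.

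A planarian gene that few cells use can still dominate the transcripts of those cells. Specialised cells, such as secretory and yolk-producing cells, are known to devote much of their mRNA to a small set of products, and the sexual planarian carries ovaries, testes, yolk glands and accessory organs beside its gut, nervous system and skin. Genes that serve the same cell state are often detected in the same cells. The deposited files give an identifier for each member and no name, protein or function, so the members are described by what they share in these cells.

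All values used to choose the members are descriptions and were not tested. Of 7431 genes detected in 50 to 960 barcodes, 67 (0.902%) had a mean of 5 UMIs or more. The median over these rare genes was 1.14 UMIs per positive barcode, and 99% lay below 4.91. The 51 members had means of 5.03 to 14.6 UMIs (median 5.68) and were detected in 51 to 949 barcodes (median 561). The highest means belonged to SMESG000061316.1 with 14.6 UMIs, SMESG000011864.1 with 10.1, SMESG000035313.1 with 9.10, SMESG000075443.1 with 8.46 and SMESG000062826.1 with 8.09. These 5 genes were spread over 2 co-detection groups and the genes outside any group.

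**Figure D1:**
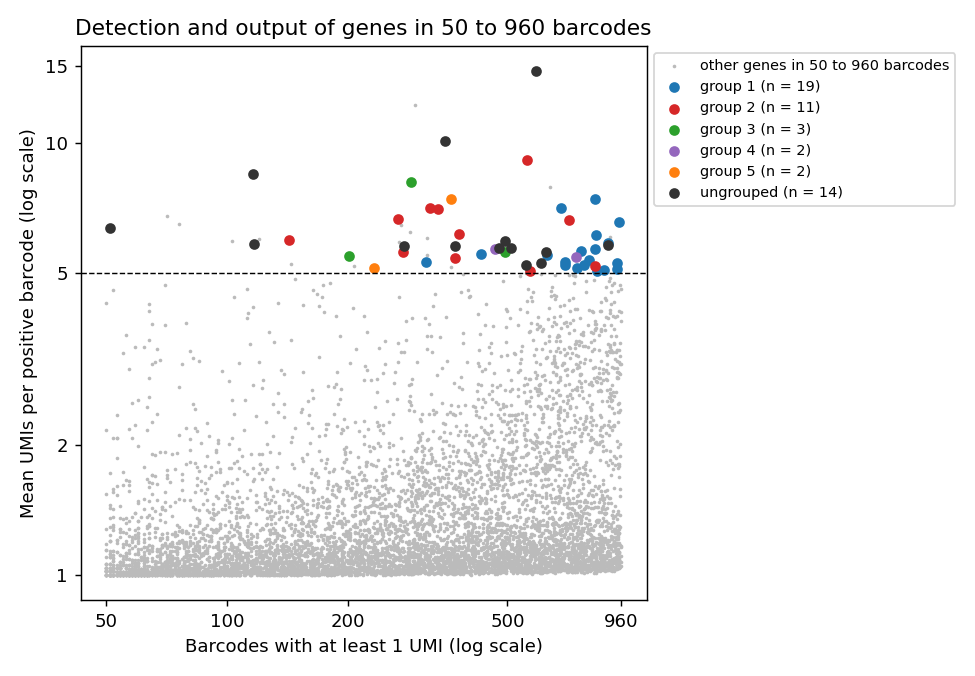
Each point is a gene detected in 50 to 960 barcodes, with the number of positive barcodes on the x axis and the mean UMIs per positive barcode on the y axis (both log scales); members are colored by co-detection group and the dashed line is the limit of 5 UMIs. Members lie between 5.03 and 14.6 UMIs, grey points above the line are genes left out by region or *klf4l*, and most other rare genes lie near the median of 1.14.

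The limits passed through a continuous distribution. The lowest means inside were 5.03 for SMESG000037994.1 and 5.04 for SMESG000071248.1, and the highest outside were 4.98 for SMESG000034723.1 and 4.97 for SMESG000072936.1. At the lower barcode limit, SMESG000055805.1 (51 barcodes) and SMESG000075443.1 (116) were inside, while SMESG000066745.1 (46) and SMESG000009234.1 (42) were outside. At the upper limit, SMESG000023299.1 (949) and SMESG000070000.1 (936) were inside, while SMESG000004650.1 (976) and SMESG000033092.1 (983) were outside. For the region limit, the ratios nearest to 2 were 1.82 for SMESG000062792.1 and 1.91 for SMESG000062814.1 inside, and 2.11 for SMESG000026791.1 and 2.22 for SMESG000053385.1 outside. Membership moved with the libraries used. The rule gave 49 members without posterior library 1 (25 of them among the 51), 87 without posterior library 2 (34), 60 without anterior library 1 (45) and 78 without anterior library 2 (43).

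The name of a rare gene with high output holds for a minority of the cells in which each member was seen. For 49 of the 51 members the median over positive barcodes was 1 UMI. Barcodes with exactly 1 UMI made up 46.3% to 88.8% of a member's positive barcodes (median 63.4%). The mean was carried by cells with 5 UMIs or more, called carriers below, which were 3.26% to 34.1% of positive barcodes and held 76.9% to 92.0% of a member's UMIs. The number of carriers per member was between 4 and 278 (median 82).

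UMIs of some members sat in very few cells. The 10 highest barcodes held 10.7% to 91.2% of a member's UMIs (median 38.5%), and more than 50% for 17 members. For 12 members the mean fell below 5 once the highest barcode was left out, and 39 remained members. The extreme was SMESG000061316.1: of its 8628 UMIs, 7572 were in 1 posterior 1 cell, where they were 37.8% of the 20044 UMIs of that cell. Without that barcode its mean was 1.79 UMIs. In SMESG000055805.1, the rarest member, 1 posterior 1 cell held 252 of 324 UMIs and the mean without it was 1.44. In SMESG000053016.1, named after its values were seen, 1 posterior 2 cell held 1021 of 1592 UMIs, 25% of that cell's 4085 UMIs. The high mean of these genes rests on 1 cell each.

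**Figure D2:**
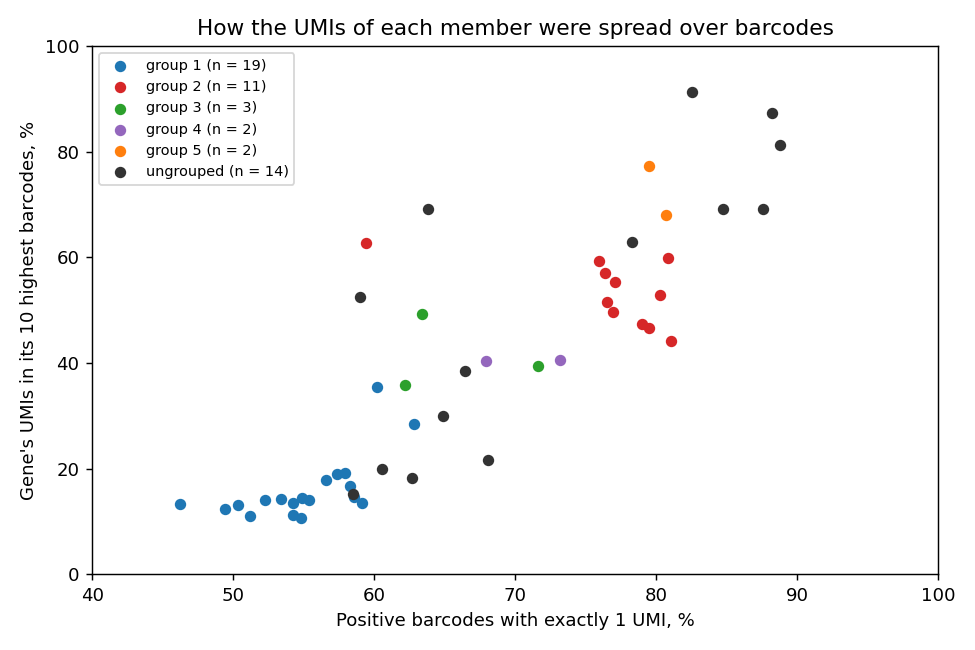
Each point is a member, with the percent of its positive barcodes that held exactly 1 UMI on the x axis and the percent of its UMIs in its 10 highest barcodes on the y axis. Group 1 genes (blue) lie low at 10.7% to 35.5% on the y axis, and the highest point, at 91.2%, is SMESG000061316.1.

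Together the members took 0.107% of all UMIs: 0.117% and 0.0997% in posterior libraries 1 and 2, and 0.152% and 0.0813% in anterior libraries 1 and 2. Carriers of any member numbered 422 (3.51% of cells) and 818 (4.29%) in the posterior libraries, and 269 (4.00%) and 257 (2.47%) in the anterior libraries. These 1766 cells held 82.9% of member UMIs. At least 1 member UMI was present in 14442 cells, or 29.95% of all cells. In 94 cells the members took over 5% of all UMIs, in 57 over 10% and in 12 over 20%.

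To ask which members were used by the same cells, the overlap of carrier sets was measured by the Jaccard index, the number of cells that carried both genes over the number that carried either. Members were joined into a group while the mean index was at least 0.2, and a group cell carried 2 or more members of the group. This placed 37 members in 5 groups of 19, 11, 3, 2 and 2 genes, and left 14 ungrouped. The highest index between a group's gene and any member outside the group was 0.0108 for group 1, 0 for group 2, 0.00763 for group 3, 0.0882 for group 4 and 0.0278 for group 5. Indices with non-member genes were not measured. Of the 540 group cells, 1 belonged to a pair of groups (3 and 4). Because the groups were made from these cells, the indices are descriptions.

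**Figure D3:**
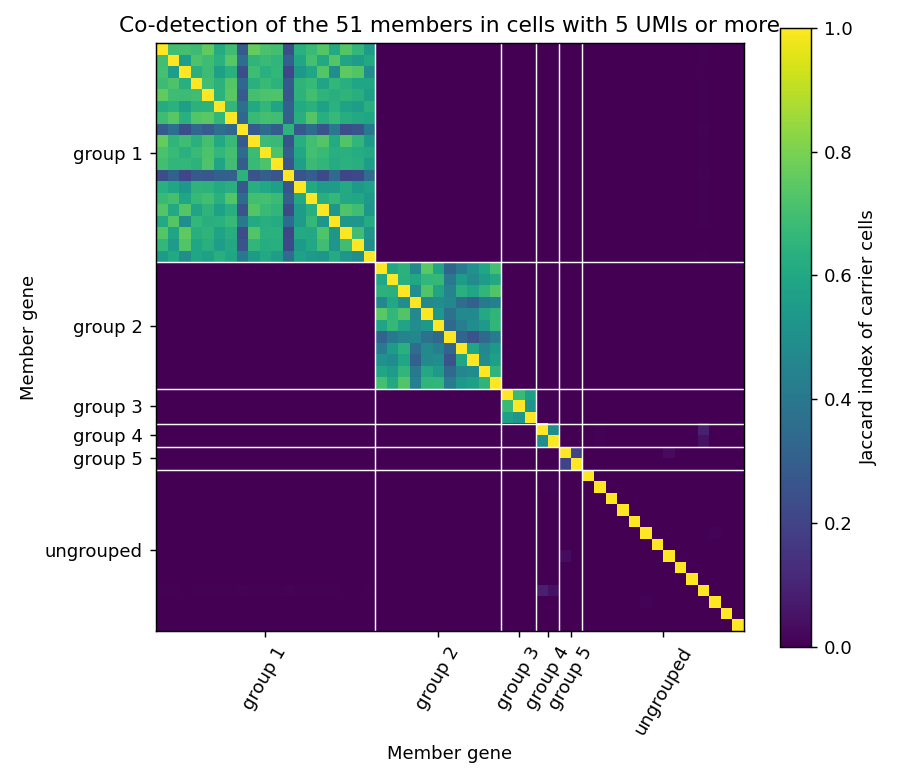
Jaccard index of carrier cells (5 UMIs or more) for each pair of the 51 members, colored from 0 (dark) to 1 (yellow), with white lines between groups. The blocks of groups 1 to 4 have median indices of 0.625, 0.531, 0.568 and 0.485, the pair of group 5 has 0.2, and ungrouped members stand alone on the diagonal.

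Groups formed in some libraries were then measured in libraries that had no part in forming them. Groups formed in posterior library 1 and anterior library 1 contained the same 19, 11, 3 and 2 genes as groups 1 to 4, while the pair of group 5 did not join. The median index of group 1 was 0.570 in the libraries numbered 2, against 0.654 where the group was formed. It was 0.500 against 0.600 for group 2, 0.561 against 0.600 for group 3, and 0.505 against 0.429 for group 4. Among the 1045 other pairs of members the median was 0 in the libraries numbered 2. The highest index was 0.240, reached by the pair of group 5, which is among these other pairs. Genes of the first 4 groups were also co-detected in the libraries numbered 2. The 51 genes themselves had been chosen on all libraries, these included, so the indices are descriptions and no independent check.

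Group 1 was the largest, with 19 genes used at a modest level by the same deep cells. It had 331 group cells: 120 in posterior library 1 (0.998% of its cells, exact binomial 95% interval 0.828% to 1.19%), 104 in posterior library 2 (0.545%, 0.446% to 0.660%), 56 in anterior library 1 (0.833%, 0.630% to 1.08%) and 51 in anterior library 2 (0.491%, 0.366% to 0.645%). In both regions the library numbered 1 had the larger share. Pairwise indices were 0.209 to 0.765. A group cell carried a median of 12 of the 19 genes, and 42 cells carried all of them.

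The members with the highest means in group 1 were SMESG000035546.1 (7.39 UMIs per positive barcode), SMESG000077625.1 (7.07) and SMESG000023299.1 (6.54). SMESG000035546.1 had 90 and 69 carriers in posterior libraries 1 and 2, and 42 and 28 in anterior libraries 1 and 2. It took a median of 0.115% and 0.117% of the UMIs of posterior carriers, and 0.112% and 0.120% of the UMIs of anterior carriers, nearly the same share in all libraries. Its library sums were 54.2 and 27.7 CPM in posterior libraries, and 58.5 and 22.4 CPM in anterior libraries. SMESG000077625.1 had 40.0 and 23.5 CPM in posterior libraries, and 49.5 and 17.7 CPM in anterior libraries. SMESG000023299.1 had 48.3 and 30.8 CPM in posterior libraries, and 63.1 and 30.3 CPM in anterior libraries. For each of the 3 genes the regions overlapped, and the spread within a region was wider than the gap between regions. In such sums of all cells of a library, fewer cells of a type and less RNA per cell cannot be told apart.

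No gene dominated group 1. Each of the 19 members had the most UMIs in at least 1 group cell, and SMESG000035546.1 did so in 65 of 331. A member took a median of 0.0528% to 0.116% of its carriers' UMIs, and all 19 together took a median of 1.02% of a group cell (range 0.126% to 1.96%). This share changed little with depth: over the 331 cells, Spearman's rho of share and UMIs per cell was 0.17. A shallow cell passes the 5-UMI limit only at a higher share, and the effect of this on rho was not tested. The number of members carried went with depth (rho 0.74), and the part of the 5-UMI limit in this was not tested. These correlations are across cells of shared libraries and have no test.

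Group 1 cells were the deepest of all groups, with a median of 13971 UMIs and 2755 genes and a highest value of 101046 UMIs. Without the UMIs of the members, their medians were 18399 and 15617.5 UMIs in posterior libraries 1 and 2, against 3259 and 2376.5 in the other cells of these libraries. In anterior libraries 1 and 2 they were 9230.5 and 6810 UMIs, against 1198 and 1211 in other cells. The log2 ratio was 2.50 and 2.72 in posterior libraries, and 2.95 and 2.49 in anterior libraries, a mean of 2.66 ± 0.22 (SD, n = 4 libraries). Group 1 cells were higher in 4 of 4 libraries, and the exact two-sided sign permutation test gave *P* = 0.13, the smallest that 4 libraries allow (0.25 after Benjamini-Hochberg adjustment over 4 groups). The limit of 5 UMIs favors deep cells, so this comparison is not independent of how group cells were defined. With cells thinned to 1000 UMIs and a gene carried from 1 UMI, 2 of the 19 genes stayed together.

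**Figure D4:**
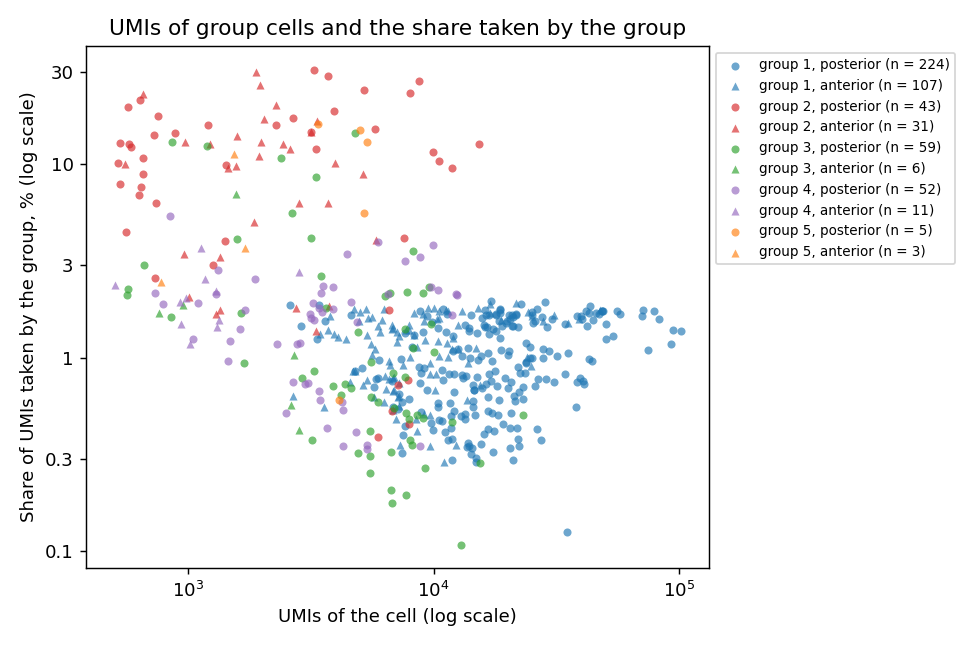
Each point is a group cell, with its UMIs on the x axis and the percent of them taken by the genes of its group on the y axis (both log scales); circles are posterior and triangles anterior cells. Group 1 (blue) lies to the right, at a median of 13971 UMIs and 1.02%, and group 2 (red) at the top left, at a median of 1973 UMIs and 10.6%.

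Outside its own cells, group 1 was low. Group cells were defined as those that carried 2 or more of these genes. The contrast with the cells of no group was therefore set by the definition and is a description. Over the 19 genes a median of 91.5% of group 1 cells were positive, against 1.35%, 1.54%, 0% and 0% of the cells of groups 2 to 5 and 1.04% of the 47676 cells of no group. Summed over the genes, this was 11712 CPM in group 1 cells, against 12.5 to 54.2 CPM in the cells of the other groups and 73.9 CPM in the cells of no group. The cells of no group had a median depth of 1920 UMIs, far below that of group 1 cells, and shares of positive cells are set by depth as well as level. Whether the low level elsewhere was RNA free in the droplets was not tested.

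Genes outside the members were also set side by side in group 1 and other cells. Among 8831 non-member genes with at least 20 UMIs in these cells, 1895 (21.5%) had a CPM at least 10 times higher than in other cells. The filter acts in the group's own cells and admits lower genes in groups with more UMIs, so such counts are not support for a difference and are not comparable between groups. The highest ratio belonged to SMESG000028570.1, with 32 UMIs in 24 of 331 group cells and 1 UMI in all other cells, a ratio of 810 (exact 95% interval 135 to 32983). Without anterior library 2, other cells had 0 UMIs and the gene was at least 247-fold higher, against a limit of 3 counts over all other cells. SMESG000001592.1 followed at 280-fold (165 to 512), positive in 31.1% of group 1 cells and 0.0313% of other cells. SMESG000034723.1, which missed membership at a mean of 4.98, was positive in 81.6% of group 1 cells and 0.595% of other cells. Intervals cover counting error only, and since the groups were formed in the same cells these ratios are descriptions.

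Of the known markers, neither *nrps* nor *klf4l* had a UMI in group 1 cells (0 of 331 cells, which allows up to 0.906% of cells with a UMI and does not bound the cells that express the gene). *LamA* was detected in 9.67% of group 1 cells and 3.4% of other cells, but its level was 8.48 CPM in group 1 cells and 19.7 CPM in other cells. The *nrps* paralog of the gut reached 2.66 CPM in group 1 cells and 32.7 CPM in other cells. None of these markers was raised in level, and group 1 was given no cell type name.

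Group 2 was a set of genes that together took a large part of a cell. Its 11 genes were carried together by 74 cells: 10 in posterior library 1 (0.0832% of cells, 0.0399% to 0.153%), 33 in posterior library 2 (0.173%, 0.119% to 0.243%), 13 in anterior library 1 (0.193%, 0.103% to 0.331%) and 18 in anterior library 2 (0.173%, 0.103% to 0.274%). The group took a median of 10.6% of the UMIs of its cells, up to 30.7%, with 54 cells over 5% and 41 over 10%. By library the median share was 14.9% and 10.8% in posterior libraries 1 and 2, and 11.0% and 9.89% in anterior libraries 1 and 2. A group cell has at least 5 UMIs of 2 or more of these genes, which raises the share in shallow cells of any library. These shares are therefore descriptions, and with carriers from 1 UMI the share was far lower, as given at the end. Pairwise indices were 0.255 to 0.744. A median of 8 genes was carried per cell, and 8 cells carried all 11.

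SMESG000035313.1 had the highest mean of group 2, at 9.10 UMIs, with 11 and 30 carriers in posterior libraries 1 and 2, and 13 and 21 in anterior libraries 1 and 2. It took a median of 2.26% and 1.46% of the UMIs of its posterior carriers, and 1.74% and 0.930% of the UMIs of its anterior carriers. Its means were 14.1 and 7.08 UMIs per positive barcode in posterior libraries, and 16.4 and 6.40 in anterior libraries, which made it 1 of only 3 members at a mean of 5 or more in all libraries. SMESG000035316.1 was another, with means of 6.54 and 6.95 UMIs in posterior libraries, and 9.81 and 6.76 in anterior libraries. SMESG000013909.1 had 9.66 and 7.59 UMIs in posterior libraries, and 4.68 and 4.40 in anterior libraries. SMESG000014241.1 took the largest median share of any grouped member in its carriers, 1.90%, and reached 7.02% in 1 cell.

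Leadership in group 2 was shared as well: SMESG000035313.1 had the most UMIs in 23 of 74 cells, and 10 of the 11 genes led some cell. SMESG000035313.1 was carried by 94.6% of group cells at a median of 25 UMIs, and SMESG000017332.1, named after its values were seen, by 36.5% at a median of 3 UMIs. Group 2 genes summed to 107920 CPM in group 2 cells, against 5.98, 10.8, 16.7 and 0 CPM in the cells of groups 1, 3, 4 and 5 and 31.0 CPM in the cells of no group. As for group 1, the contrast with the cells of no group was set by the definition of group cells. In group 1 cells, a median of 0.906% were positive for a group 2 gene at a median depth of 13971 UMIs. No cell carried genes of groups 1 and 2 at once.

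Group 2 cells did not stand apart in depth in a constant direction. Without member UMIs their medians were 2929.5 and 1225 UMIs in posterior libraries 1 and 2, against 3292 and 2395 in other cells, and 1732 and 1554 UMIs in anterior libraries 1 and 2, against 1206 and 1216 in other cells. The log2 ratio was -0.17 and -0.97 in posterior libraries, and 0.52 and 0.35 in anterior libraries (mean -0.06 ± 0.67, SD, n = 4 libraries, higher in 2 of 4, exact sign permutation *P* = 0.875, adjusted *P* = 0.875). Without posterior library 2 the mean turned to 0.24. With members included, group 2 cells had a median of 1973 UMIs.

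Of 1720 non-member genes with at least 20 UMIs in its cells, 98 (5.7%) were at least 10 times higher in CPM. SMESG000042396.1 had 42 UMIs in 11 of 74 group 2 cells and 0 in all other cells, and so was at least 9416-fold higher (limit of 3 counts over all other cells). Without anterior library 1 this bound was 4388. It stood at 157 and 28.2 CPM in group 2 cells of posterior libraries 1 and 2, and at 694 and 164 CPM in those of anterior libraries 1 and 2. SMESG000073667.1, a gene left out of the members as anterior, had 3309 UMIs in 25 of 74 group 2 cells and 290 UMIs in all other cells, a ratio of 7675 (6804 to 8683). With each cell weighted equally the ratio was 3186, below this interval. The interval treats UMIs of the same cell as independent, so it covers counting error only and not the spread between cells. *nrps* had no UMI in group 2 cells (0 of 74, which allows up to 4.05% of cells with a UMI), *klf4l* had 1, and *LamA* stood at 17.0 CPM in group 2 cells and 19.3 CPM in other cells. The gut *nrps* paralog was at 59.6 CPM in group 2 cells and 31.6 CPM in other cells, from 14 UMIs.

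Group 3 comprised SMESG000062826.1, SMESG000062814.1 and SMESG000046289.1, and its cells were mostly posterior. Of its 65 cells, 15 came from posterior library 1 (0.12% of cells, 0.0698% to 0.206%), 44 from posterior library 2 (0.231%, 0.168% to 0.309%), and 3 each from anterior libraries 1 (0.0446%, 0.00921% to 0.130%) and 2 (0.0289%, 0.00596% to 0.0844%). All 3 genes were carried in 41 cells, with pairwise indices of 0.523 to 0.674. The share taken was a median of 0.856% and up to 14.4%, and without posterior library 2 the median was 1.63%.

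SMESG000062826.1 had 10.7 and 22.1 CPM in posterior libraries 1 and 2, and 6.08 and 3.28 CPM in anterior libraries 1 and 2, with 17 and 44 posterior carriers and 3 and 3 anterior carriers. SMESG000062814.1 had 5.99 and 9.74 CPM in posterior libraries, and 3.13 and 1.40 CPM in anterior libraries. SMESG000046289.1 had 11.5 and 25.9 CPM in posterior libraries, and 11.7 and 5.88 CPM in anterior libraries. Both posterior libraries lay above both anterior libraries for the first 2 genes, while the regions overlapped for SMESG000046289.1. Posterior library 2 was the highest for all 3.

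Cells of group 3 had a median of 5522 UMIs. Without member UMIs the medians were 4344 and 6612.5 UMIs in posterior libraries 1 and 2, against 3291 and 2389 in other cells, and 1464 and 2616 UMIs in anterior libraries 1 and 2, against 1207 and 1217 in other cells. The log2 ratio averaged 0.81 ± 0.57 (SD, n = 4 libraries) and was higher in 4 of 4, with exact sign permutation *P* = 0.13, the smallest possible, and adjusted *P* = 0.25. The limit of 5 UMIs, which favors deep cells, defined the cells of every group. This comparison is therefore not independent of how group 3 cells were defined. Of 3709 non-member genes with 20 UMIs in group 3 cells, 158 (4.26%) were at least 10 times higher, and 75 without posterior library 2. The leading genes were SMESG000050245.1 at 1788-fold (1216 to 2700), positive in 40.0% of group 3 cells and 0.0644% of other cells, and SMESG000028762.1 at 1102-fold (868 to 1408), positive in 72.3% of group 3 cells and 0.158% of other cells. Without posterior library 2 these ratios were 3082 and 4382, and without posterior library 1 they were 1145 and 750. With each cell weighted equally SMESG000050245.1 was at 1031-fold, below its interval, which covers counting error only. *klf4l* had no UMI in group 3 cells (0 of 65, which allows up to 4.62% of cells with a UMI), and *nrps* and *LamA* had 1 UMI each. The gut *nrps* paralog was detected in 15.4% of group 3 cells and 7.55% of other cells. Its level was 27.1 CPM in group 3 cells and 31.6 CPM in other cells.

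Group 4 was the pair SMESG000042174.1 and SMESG000025592.1, with an index of 0.485. Both were carried in 63 cells: 11 in posterior library 1 (0.0915%, 0.0457% to 0.164%), 41 in posterior library 2 (0.215%, 0.154% to 0.291%), 4 in anterior library 1 (0.0595%, 0.0162% to 0.152%) and 7 in anterior library 2 (0.0674%, 0.0271% to 0.139%). SMESG000042174.1 had 7.91 and 26.5 CPM in posterior libraries, and 9.12 and 9.47 CPM in anterior libraries. SMESG000025592.1 had 12.7 and 39.7 CPM in posterior libraries, and 12.2 and 16.1 CPM in anterior libraries. For both genes posterior library 2 stood above the other libraries, and the regions overlapped. The genes shared the lead almost evenly, in 34 and 29 cells, and the pair took a median of 1.76% of UMIs (up to 5.42%).

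The depth of group 4 cells was near that of other cells: without member UMIs 3443 and 3403 in posterior libraries 1 and 2, against 3291 and 2391 in other cells, and 1142 and 1092 in anterior libraries 1 and 2, against 1207 and 1217.5 in other cells. The mean log2 ratio was 0.08 ± 0.30 (SD, n = 4 libraries, higher in 2 of 4, exact sign permutation *P* = 0.875, adjusted *P* = 0.875), and -0.06 without posterior library 2. Of 2238 non-member genes with 20 UMIs, 196 (8.76%) were at least 10 times higher in group 4 cells, and 69 without posterior library 2. SMESG000042235.1 led at 1271-fold (1057 to 1534), positive in 82.5% of group 4 cells and 0.280% of other cells, and at 566-fold with each cell weighted equally. SMESG000042170.1 followed at 1253-fold (1035 to 1521), positive in 28.6% of group 4 cells and 0.204% of other cells. It was at 721-fold without posterior library 2 and at 527-fold with each cell weighted equally. Both equally weighted ratios lay below their intervals, which cover counting error only. SMESG000072936.1, just under the membership limit at a mean of 4.97, was positive in 96.8% of group 4 cells and 1.13% of other cells. *nrps* and *klf4l* had no UMI in group 4 cells (0 of 63, which allows up to 4.76% of cells with a UMI). *LamA* had 1 UMI there, and the gut *nrps* paralog was at 8.33 CPM in group 4 cells and 31.6 CPM in other cells.

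Group 5, the pair SMESG000078134.1 and SMESG000051897.1, was the least firm. Its index was 0.2, at the limit, and its 8 cells were 5 of posterior library 2, 0 of posterior library 1, 2 of anterior library 1 and 1 of anterior library 2. Without posterior library 2 the pair did not join, and the count of non-member genes at least 10 times higher was 2 in place of 35 of 127 (27.6%). SMESG000078134.1 had 1.89 and 28.9 CPM in posterior libraries 1 and 2, and 29.7 and 7.28 CPM in anterior libraries 1 and 2. SMESG000051897.1 had 1.05 and 12.1 CPM in posterior libraries, and 15.6 and 4.16 CPM in anterior libraries. Both genes were highest in anterior library 1, closely followed by posterior library 2, and lowest in posterior library 1.

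In its 8 cells group 5 took a median of 8.39% of UMIs (0.605% to 16.1%), and 3.68% without posterior library 2. SMESG000078134.1 led in each of the 8 at a median of 173.5 UMIs, while SMESG000051897.1 had a median of 47.5, and over these cells they stood at 71552 and 23164 CPM. SMESG000061227.1 was at 9206-fold (7923 to 10710) and SMESG000032824.1 at 7796-fold (5385 to 11346), both positive in 8 of 8 group 5 cells and in 0.371% and 0.102% of other cells. With each cell weighted equally the ratios were 3951 and 5853, the first below its interval. The intervals cover counting error only and leave out the spread between the 8 cells. Depth was not tested for group 5, since posterior library 2 alone had at least 3 of its cells. *nrps*, *klf4l* and the gut *nrps* paralog had no UMI in the 8 group 5 cells, which allows up to 37.5% of cells with a UMI. *LamA* had 1 UMI there.

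The 14 ungrouped members shared few carriers with any other member, with a highest index of 0.0882 between SMESG000042676.1 and a group 4 gene. SMESG000011864.1 was the most widely spread of those with high output, with 31 and 30 carriers in posterior libraries 1 and 2, and 8 and 15 in anterior libraries 1 and 2. Its means were 12.9 and 9.95 UMIs per positive barcode in posterior libraries, and 6.75 and 6.20 in anterior libraries, so that it was the third member with a mean of 5 or more in every library. It took a median of 1.47% and 1.71% of the UMIs of posterior carriers, and 1.05% and 1.49% of anterior carriers. Its library sums were 23.7 and 24.4 CPM in posterior libraries, and 11.7 and 16.1 CPM in anterior libraries, without overlap. Its closest member, SMESG000042174.1, had an index of 0.00602.

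SMESG000078202.1 took the largest median share of all members, 3.33% of the UMIs of its 18 carriers, followed by SMESG000014241.1 (1.90%), SMESG000035313.1 (1.60%), SMESG000042676.1 (1.5%) and SMESG000011864.1 (1.49%). SMESG000078202.1 had 3 and 11 carriers in posterior libraries 1 and 2, and 1 and 3 in anterior libraries 1 and 2. At the same time 87.6% of its positive barcodes held 1 UMI, so its carriers, at a median of 71 UMIs, stood far above the rest. SMESG000042676.1 had 5 and 17 carriers in posterior libraries, and 2 and 4 in anterior libraries, and reached 16.9% of the 856 UMIs of 1 anterior 1 cell. Its library sums were among the most even, 15.9 and 20.0 CPM in posterior libraries, and 18.2 and 19.3 CPM in anterior libraries.

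The remaining ungrouped members were uneven over libraries in different ways. SMESG000061316.1 had 140 CPM in posterior library 1, through its 1 cell, and 7.45 CPM in posterior library 2, against 3.56 and 13.6 CPM in anterior libraries 1 and 2. SMESG000075443.1 had 2 and 20 carriers in posterior libraries 1 and 2, and 2 and 1 in anterior libraries 1 and 2. Of those named after their values were seen, SMESG000068402.1 had 102 of its 124 carriers in posterior library 2, and SMESG000069765.1 had 91 of 136 there. SMESG000019762.1 (196 carriers) and SMESG000017801.1 (187 carriers) had the most carriers of the ungrouped genes, and both were highest in anterior library 1, at 57.6 and 81.4 CPM. Thus posterior library 2 and anterior library 1 each stood apart for some members.

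Spread over libraries was wide for most members. Carriers were found in all 4 libraries for 50 of the 51, the exception being SMESG000055805.1 with 2 and 2 carriers in posterior libraries 1 and 2, and none in anterior libraries. The highest library was 1.25 to 39.4 times the lowest in CPM (median 2.83). Group 1 spanned 1.95 to 3.71 times and group 5 15.0 to 15.7 times. All 19 genes of group 1 were highest in anterior library 1 and 17 were lowest in anterior library 2. Over all 51 members these counts were 28 and 24, and they were not made over all rare genes. The 19 genes were grouped because they share cells, so they are not separate observations. Group sums were 676 and 387 CPM in posterior libraries 1 and 2, and 856 and 336 CPM in anterior libraries 1 and 2 for group 1, and 140 and 196 CPM in posterior libraries, and 304 and 245 CPM in anterior libraries for group 2.

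**Figure D5:**
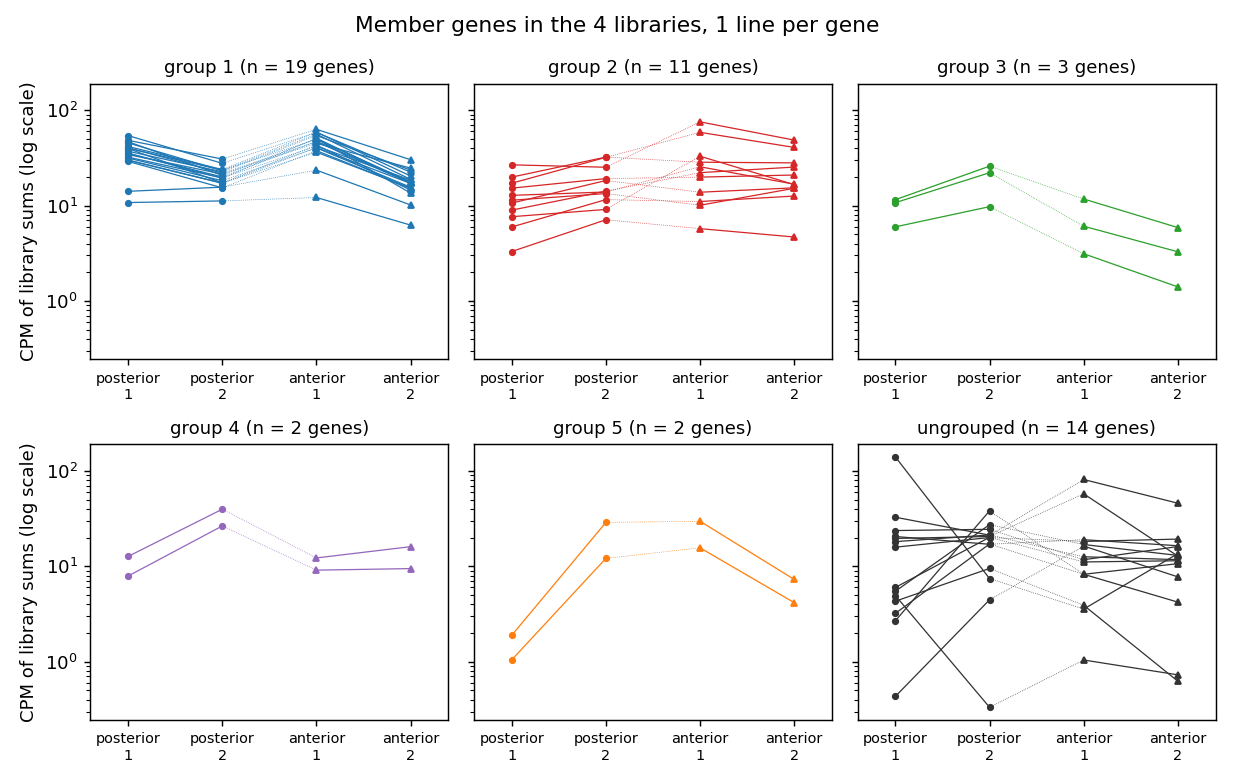
Each line is a member, with its CPM of library sums (log scale) in posterior libraries (circles) and anterior libraries (triangles), in 1 panel per group. Group 1 genes move together and peak in anterior library 1, group 3 and 4 genes peak in posterior library 2, and the ungrouped panel holds the widest range, 0.333 to 140 CPM.

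Between regions, the rule had already removed the genes with the clearest differences, so these counts show only what it left. Both posterior libraries lay above both anterior libraries for 5 members, against 11.6% of the 6964 rare genes within the region limit. Both anterior libraries lay above both posterior libraries for 8 members, against 26.3% of those genes. The regions overlapped for 38. Mean CPM was higher in the posterior region for 18 members, and for 38 without anterior library 1. Neither this count nor the next, of positive cells, was made over all rare genes, so neither has a background beside it. Posterior libraries also had the deeper cells, and shares of positive cells are set by depth as well as level. The share of positive cells was higher in the posterior region for 46 members, and for 24 once each cell was thinned to 1000 UMIs, with 1614 and 4147 cells of posterior libraries 1 and 2, and 2577 and 4088 cells of anterior libraries 1 and 2 left out as too shallow. For SMESG000035546.1 the share was 3.06% and 1.42% in posterior libraries, and 1.23% and 1.02% in anterior libraries before thinning, against 1.32% and 0.643% in posterior libraries, and 1.06% and 0.603% in anterior libraries after it.

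Some members were neighbors in the gene list. SMESG000062826.1 and SMESG000062814.1 of group 3 stood 1 row apart (index 0.568), and in group 2 SMESG000035316.1 and SMESG000035313.1 stood 2 rows apart (0.600), as did SMESG000037994.1 and SMESG000038055.1 (0.569). The group 2 genes SMESG000062971.1 and SMESG000062792.1 lay within 11 rows of the same group 3 pair and yet shared no carrier with it (index 0). Whether neighbors are copies that share reads was not tested. Libraries shared 229 barcodes in all. In none of these did both libraries carry the same member, and in 1 both were positive for the same member.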

How the data were processed

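Cells of 4 libraries, posterior 1 and 2 and anterior 1 and 2, were sequenced by the 10x Genomics 3′ protocol. The authors aligned reads to the sexual genome and counted UMIs with Cell Ranger 5.0.0, and the deposited values are UMI counts per gene and barcode, neither normalized nor pooled. Every deposited barcode was used (at least 500 UMIs). Members, lists and groups were chosen with earlier results of these data known. Carriers had at least 5 UMIs. Carrier sets were joined by average linkage at a mean Jaccard index of 0.2. CPM was the UMI sum per 1000000 UMIs of the same cells. No doublet caller was run, and cells in more than 1 group were counted. Depth was compared by an exact sign permutation test over libraries. Computation used Python 3.11.15, numpy 2.4.6, scipy 1.17.1 and pandas 2.3.3, with figures by matplotlib 3.10.9. The grouping was run on simulated counts in which all planted groups had the same number of cells and the same gene level. These settings did not include the low shares of group 1 or the few cells of group 5, so they say nothing on those groups.

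The genes named were the 3 members with the highest means and the 2 non-member genes with the highest ratios of each group, the 5 members with the highest means and with the highest shares, the 3 ungrouped members with the highest means, genes at each limit, *nrps*, its gut paralog, *LamA* and *klf4l*. Alternatives were other limits, linkages, depths and weights and each library left out. Leaving out each gene's top barcode, carriers from 0.05% of UMIs, grouping after thinning to 1000 UMIs and cells of at least 5000 UMIs were chosen after seeing the data.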

Additional observations from a re-analysis of the deposited data

Results flagged for a closer look

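For group 2, the depth of group cells against other cells pointed in opposite directions in the regions: the mean log2 ratio was -0.57 over the posterior libraries, both below 0, and 0.44 over the anterior libraries, both above 0. For group 4 it was the other way round, with 0.29 over the posterior libraries, both above 0, and -0.12 over the anterior libraries, both below 0. Each region has 2 libraries, and the difference between regions was not tested.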

How the results depend on the processing

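No paired analysis was possible because the comparison of regions was a description, with no test to which a block could be added. The count of members was 123 at a mean of 4 UMIs, 16 at a mean of 6, 104 in barcodes of at least 1000 UMIs (48 of them among the 51), and 49 to 87 with 1 library left out. Carried from 1 UMI, members formed 3 groups of 21 genes, and the genes of groups 2, 4 and 5 that stayed together numbered 0. After thinning to 1000 UMIs, a choice made after seeing the data, 10 members were grouped, with 2 of group 1, 3 of group 2 and 0 of group 5 together. Group 5 also had 0 together with carriers from 3 UMIs, 10 UMIs or 0.05% of UMIs, with a Jaccard limit of 0.3 and when formed in the libraries numbered 1. With 1 library left out there were 4 to 5 groups, 0 to 2 genes of group 5 stayed together, and the members of groups 1 to 4 did not change. No alternative put genes of different groups together, and 1 ungrouped member joined a group at 5000 UMIs.

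The median share over members was 0.417%, against 0.826% by means, 0.0586% with carriers from 1 UMI, 0.814% from 10 UMIs, and 0.389% to 0.668% with 1 library left out. From 1 UMI the group shares were 0.241% for group 1, 0.162% for group 2, 0.745% for group 4 and 1.20% for group 5. From 10 UMIs they were 1.30% for group 1, 1.45% for group 3 and 2.12% for group 4. The mean for group 3 was 2.13%, and its median 0.792% to 1.63% with 1 library left out. That of group 5 was 3.68% to 11.2% with 1 library left out and 11.2% in cells of at least 1000 UMIs, where group 2 took 10.3%. Members with a higher share of positive cells in the posterior region numbered 24 after thinning, and those with a higher CPM there 15 to 38 with 1 library left out. Neither count was made over all rare genes.

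The log2 depth ratio of group 2 became 0.055 by means and 0.16 with all UMIs, and ranged from -0.26 to 0.24 with 1 library left out. That of group 4 became -0.17 by genes detected and -0.34 by means, and ranged from -0.057 to 0.16. Non-member genes at least 10 times higher numbered 75 to 156 for group 3, 69 to 201 for group 4 and 2 to 33 for group 5 with 1 library left out. The causes were not tested. Depth limits the detection of members in cells near the minimum of 500 UMIs, where 5 UMIs are 1% of a cell.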
